A study of Mus musculus with 30 samples.

Results

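The genes described here encode the mouse proteasome, its activators and its assembly factors. They are the 49 genes, of 13076 listed in both count tables, whose symbols run Psma, Psmb, Psmc, Psmd, Psme, Psmf or Psmg followed by a number, with names marked -ps excluded. The rule reads symbols and no measured value, although it was set with earlier results of these data known, and every symbol of this form in either table was in both. The set holds 5 members that are known to be induced by interferon, Psmb8, Psmb9, Psmb10, Psme1 and Psme2, and 44 others. Among those 44, 31 encode ring and 19S subunits and 10 encode other activators, an inhibitor or assembly chaperones. The last 3 match by name but stand apart in kind. Psma8 encodes an alpha subunit made mainly in testis, Psme2b is an intronless copy of Psme2, and Psmc3ip encodes a meiotic recombination cofactor that is not a proteasome subunit.

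The proteasome is the protease that degrades proteins tagged with ubiquitin. Its 20S core is a barrel of alpha and beta rings, and Psmb5, Psmb6 and Psmb7 carry its active sites in most cells. The 19S cap recognises and unfolds tagged proteins with a ring of ATPases (Psmc genes) and a set of non-ATPase subunits (Psmd genes). In immune cells and under interferon, newly built cores take up Psmb8, Psmb9 and Psmb10 in place of Psmb5, Psmb6 and Psmb7, which gives the immunoproteasome. Psme1 and Psme2 form the 11S cap PA28, and the peptides made by these particles feed the loading of MHC class I molecules.

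RNA was sequenced from bone marrow (BM) and from F4/80+ adipose tissue macrophages (ATMs) sorted from visceral fat, with 3 libraries in each of 5 groups per tissue. The groups were WT recipients and leptin-deficient Ob/Ob recipients given Vehicle, a GLP1R agonist (beinaglutide, 3 mg/kg, subcutaneous), an anti-IL17A antibody (200 µg per mouse, intraperitoneal, 3 times a week) or both (Combo). Treatment of the Ob/Ob recipients ran for 30 days from 8 weeks after transplantation. No dosing or treatment period is listed for the WT recipients, so whether they were given vehicle cannot be told. Irradiation used 700 and then 400 cGy. The labels give mice of both sexes on a C57BL/6 background at 12 to 14 weeks of age, without saying at which step, and the study's methods give the recipients a younger age at irradiation. Per the labels, every recipient received 500000 BM cells from CD45.2 Shp2E76K/+;LysM-Cre+ donors mixed with 500000 CD45.1 Boy/J competitor cells. The E76K allele of Shp2 is an activating allele, and LysM-Cre switches it on in myeloid cells. Competitor cells come from Boy/J mice, so cells derived from them carry no mutant allele. The sources conflict for ATM. A figure legend of the study describes the ATM comparison as Ob/Ob recipients of mutant against wild-type donor cells, where the labels give WT recipients and mutant donor cells. Other legends of the study name ATMs of WT and Ob/Ob recipients with mutant cells, as the labels do. For ATM, whether Vehicle and WT differ by recipient genotype, donor genotype or both cannot be told from these sources. The labels give n = 3 mice per group and place all libraries in 1 batch, and p-values measure only the spread between these samples. No label ties a single library to a single mouse, so whether the small BM spread given next is that between mice cannot be told, and BM errors and FDRs rest on it.

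Library totals ran from 31086184 to 39925495 counts in BM and from 24876074 to 45300263 in ATM. The common biological coefficient of variation was 3.51% in BM and 32.5% in ATM, so BM values carry far smaller errors. BM WT replicate 1 stood apart, with a chi-square per degree of freedom of 34.0 and 26.0 against the other WT libraries, where the remaining BM pairs gave 2.01 to 4.10. No pair of libraries agreed within sampling noise. In the libraries labelled ATM, the F4/80 gene Adgre1 lay at 30.2 to 52.4 CPM (counts scaled to 1000000 per library) with Vehicle, 192 to 229.6 in WT and 375 to 403, 864 to 894 and 395 to 405 with GLP1R agonist, Anti-IL17A and Combo. A list of 7 mature neutrophil genes summed to 20755 to 21971 CPM with Vehicle and 11984 to 12309.7 with Combo, against 185 to 209.6 in WT, 146 to 147 with GLP1R agonist and 352 to 365 with Anti-IL17A. Neutrophil transcripts thus exceeded those of the 10 macrophage and monocyte genes, at 3100.1 to 3353 CPM, in the Vehicle libraries.

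The catalytic subunits and PA28 sit at a few places in the genome (GRCm38). Psmb8 at chr17:34197721-34201454 (+) and Psmb9 at chr17:34181987-34187764 (-) lie in the MHC region, and Psmb9 shares 5.79% of its exon bases with Tap1. Psme1 at chr14:55578123-55581529 (+) and Psme2 at chr14:55587441-55591113 (-) are neighbours, and Psmb10 is at chr8:105935735-105938444 (-). The constitutive partners are Psmb5 at chr14:54614119-54618022 (-), Psmb6 at chr11:70525367-70527858 (+) and Psmb7 at chr2:38588036-38644087 (-). The authors counted reads over every overlapping gene without strand, so reads in the 14.7% of Psmb8 exon bases shared with Gm20496 were counted for both.

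Promoter windows from RefSeq (GRCm38.p6, 250 bases before to 50 after a start) were held for 41 of the 49 members and not for Psmb7. For a look at the letters near their starts, 4 motifs were searched on both strands. A short core of the interferon element ISRE (GAAANNGAA) was in 8.56% of all 32851 windows and in 7 members, Psmb3, Psmb4, Psmc2, Psmd4, Psmd9, Psme1 and Psmg4. The interferon gamma element GAS (TTCNNNGAA) was in 8.3% of windows and in Psmb8, Psmd2 and Psmg1. The antioxidant element ARE (TGACNNNGC), which NRF1 and NRF2 bind, was in 12.4% of windows and in 6 members, Psmb5, Psmb6, Psmc6, Psmd12, Psmd9 and Psme4. CCAAT was in 37.4% of windows and in 14 members, Psmb9 among them. No match in a member overlapped a match of another motif, and the motifs were chosen with the results known. The stretches below show these matches in capitals for the inducible and constitutive catalytic genes and for Psme1, each read 5′ to 3′ on the gene's strand. Only the Psmb5 stretch lies wholly before its start and outside annotated exons. Those of Psmb8, Psmb9 and Psme1 lie within the gene spans given above, and the Psme1 match begins after the start of its window's transcript. A match is a description of letters and not a site, and no binding was measured.
Psmb8, GAS, chr17:34198088-34198116, plus strand: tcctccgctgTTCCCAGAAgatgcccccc
Psmb9, CCAAT on the other strand, chr17:34187324-34187348, minus strand: gcagccgctgATTGGaaagccgagc
Psme1, ISRE core on the other strand, chr14:55578494-55578522, plus strand: gagctgtgctTTCGCTTTCccttcccgct
Psmb5, ARE, chr14:54618024-54618052, minus strand: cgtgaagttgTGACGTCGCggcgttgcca
Psmb6, ARE, chr11:70525338-70525366, plus strand: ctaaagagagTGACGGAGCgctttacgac

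Psmb10 and Psme2 held none of the 4 motifs in their windows, and the part of each window that lies before the start and outside every annotated exon is given here for comparison.
Psmb10, chr8:105938445-105938642, minus strand: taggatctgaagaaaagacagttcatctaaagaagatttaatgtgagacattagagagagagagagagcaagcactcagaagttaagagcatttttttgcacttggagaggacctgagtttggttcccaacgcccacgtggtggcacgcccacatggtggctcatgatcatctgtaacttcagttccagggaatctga
Psme2, chr14:55591114-55591351, minus strand: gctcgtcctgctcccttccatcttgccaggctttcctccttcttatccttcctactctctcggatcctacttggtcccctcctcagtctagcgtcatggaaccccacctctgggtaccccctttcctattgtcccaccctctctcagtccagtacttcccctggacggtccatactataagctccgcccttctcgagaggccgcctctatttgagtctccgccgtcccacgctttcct

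In BM, all 5 inducible genes were higher in Vehicle than in WT recipients, by 1.98-fold for Psmb9 to 3.89-fold for Psmb10, while the ring and 19S subunits had a median log2 fold change of 0.32, with Psmd3 and Psma5 level with Psmb9. A call here means a false discovery rate (FDR) under 0.05 in edgeR's quasi-likelihood test and an absolute log2 fold change over 1. Of all 13353 genes tested, 19.5% were called, 9.44% higher and 10% lower. Of the 49 members, 5 were called, all higher, and 4 of them were inducible genes. Psmb9 missed the fold limit at a log2 fold change of 0.98 ± 0.030, and passed it without WT replicate 1 or without Vehicle replicate 3. The fifth call was Psme2b, whose reads cannot be told apart with certainty from those of Psme2.

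Psmb8, the inducible chymotrypsin-like subunit, lay at 188, 200.2 and 201 CPM in the WT libraries, 512, 494 and 526 with Vehicle, 104, 104 and 109.6 with GLP1R agonist, 143, 143 and 144 with Anti-IL17A and 140.2, 143 and 146 with Combo. The Vehicle libraries were highest, the WT libraries next and the GLP1R agonist libraries lowest, with Anti-IL17A and Combo overlapping between them. The log2 fold change of Vehicle over WT was 1.38 ± 0.029 (edgeR FDR 3.14e-34).
Psmb9, the inducible counterpart of Psmb6, lay at 114, 111 and 108 CPM in the WT libraries, 219, 223 and 216 with Vehicle, 49.3, 47.9 and 49.01 with GLP1R agonist, 64.3, 62.8 and 63.8 with Anti-IL17A and 67.7, 69.2 and 69.95 with Combo. No groups overlapped, and all 3 treated groups were below WT. Vehicle exceeded WT by 0.98 ± 0.030 on the log2 scale (edgeR FDR 3.66e-28).
Psmb10, the inducible counterpart of Psmb7, lay at 76.2, 79.9 and 77.6 CPM in the WT libraries, 294, 306 and 308 with Vehicle, 41.1, 40.3 and 37.6 with GLP1R agonist, 51.9, 50.99 and 47.5 with Anti-IL17A and 44.3, 44.4 and 46.9 with Combo. Again no groups overlapped, and the order from the top was Vehicle, WT, Anti-IL17A, Combo and GLP1R agonist. Its log2 fold change of 1.96 ± 0.036 was the highest among the members (edgeR FDR 2.27e-36).

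The PA28 genes followed the inducible catalytic genes. Psme1, which encodes PA28 alpha, lay at 246, 263 and 260.3 CPM in the WT libraries, 707, 728 and 723 with Vehicle, 180.2, 184 and 186 with GLP1R agonist, 192, 186 and 184 with Anti-IL17A and 186, 185 and 189 with Combo. The 3 treated groups overlapped one another below WT, and Vehicle stood above WT by 1.49 ± 0.026 on the log2 scale (edgeR FDR 6.86e-37). Psme2, which encodes PA28 beta, lay at 159, 169.6 and 165 CPM in the WT libraries, 483, 507 and 513 with Vehicle, 89.9, 84.2 and 90.3 with GLP1R agonist, 102, 102 and 102 with Anti-IL17A and 104, 108 and 111 with Combo. Its groups did not overlap, and the log2 fold change of Vehicle over WT was 1.60 ± 0.030 (edgeR FDR 6.11e-36). Psme2b followed at lower counts, from 2.19 to 2.97 CPM with Combo to 12.9 to 14.7 with Vehicle.

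**Figure D1:**
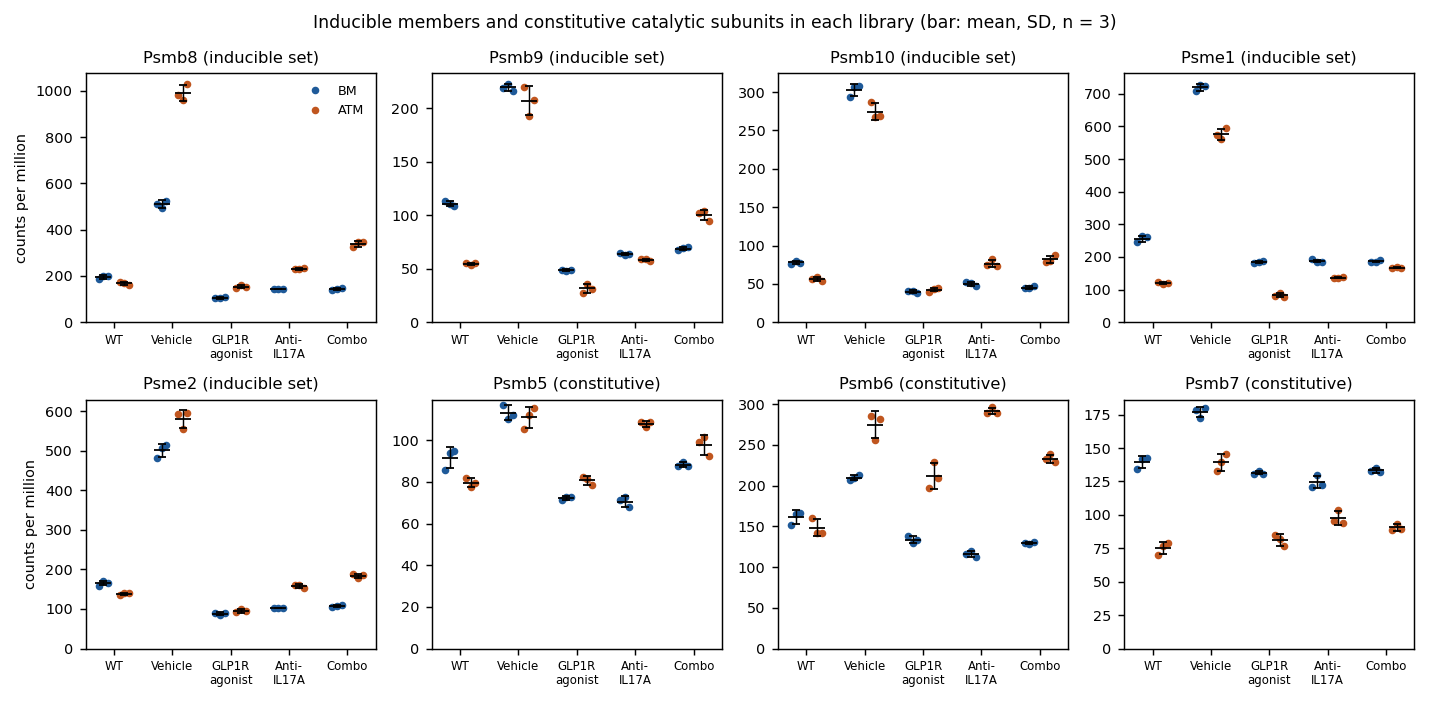
CPM of the inducible genes and their constitutive partners in each library, by group (horizontal axis) and tissue (colour). Each point is 1 library, the bars give the mean and SD of 3, and BM and ATM were scaled separately. The 3 Vehicle libraries of each inducible gene lie above every other library of that tissue, while for Psmb5 and Psmb6 in ATM the Anti-IL17A libraries reach or pass them.

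The constitutive subunits also rose, most of them by smaller amounts. With no fold limit, 37.8% of all genes were higher and 38.8% lower at an FDR under 0.05. At that rule 28 of the 31 ring and 19S subunits were higher in Vehicle, 1 was lower (Psmd6, -0.08) and 2 did not pass (Psma7 and Psmd7), with a median log2 fold change of 0.32 against -0.02 over all genes. All 3 constitutive catalytic genes passed, and none came near the inducible genes in size. Psmb5, the constitutive chymotrypsin-like subunit, lay at 85.9, 94.1 and 95.04 CPM in WT and 117, 110.4 and 112 with Vehicle, a log2 fold change of 0.31 ± 0.037 (edgeR FDR 1.33e-09). Psmb6, the caspase-like subunit, moved from 152, 166 and 167 to 207, 209 and 213 CPM (0.38 ± 0.032). Psmb7, the trypsin-like subunit, moved from 134, 142 and 142 to 178, 173 and 179.9 CPM (0.34 ± 0.030). The groups did not overlap for any of the 3.

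Among the other ring and 19S genes, Psmd3 and Psma5 showed the largest rises. Psmd3, a scaffold subunit of the 19S lid, lay at 86.7, 93.5 and 84.8 CPM in WT and 171, 175 and 176 with Vehicle (0.98 ± 0.032, log2). Psma5, an alpha ring subunit, lay at 151, 157 and 159 CPM in WT and 299, 303 and 305 with Vehicle (0.96 ± 0.028). Within the alpha ring 6 of 7 genes passed in the upward direction, from Psma5 down to the one that did not pass, Psma7 (0.03). All 6 ATPases passed upward with a median of 0.25, and 9 of 11 non-ATPase subunits did so with a median of 0.25. The 4 noncatalytic beta ring genes all passed upward, from 0.11 for Psmb1 to 0.68 for Psmb2.

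The assembly chaperones did not share this direction. Of the 4 genes that help assemble the 20S core, 3 were lower in Vehicle than in WT, Psmg1 by -0.22, Psmg2 by -0.50 and Psmg3 by -0.43 on the log2 scale, and Psmg4 stood at -0.06 (edgeR FDR 0.52, interval -0.23 to 0.11). Of the 3 chaperones of the 19S base, Psmd9 rose by 0.44 and Psmd5 and Psmd10 fell, with log2 fold changes of -0.21 and -0.16. The nuclear activator Psme3 (PA28 gamma) stood at 154, 156 and 157 CPM in WT and 152, 155 and 158 with Vehicle, and these ranges overlapped (log2 interval -0.05 to 0.05). Psme4, which encodes PA200, stood at 0.12 (edgeR FDR 0.059). Psmf1, the inhibitor PI31, rose by 0.59, and Psmc3ip, the gene that is no subunit, fell with a log2 fold change of -0.38.

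Beside these BM results, the 10 macrophage and monocyte genes summed to 4280.2 to 4325 CPM with Vehicle against 13213 to 13491 in WT. Lyz2 carried this fall, at 3443 to 3492 against 12757 to 13011 CPM, while Cd68, Cd14, Fcgr1 and C1qb lay above every WT library. The 7 B cell genes summed to 345 to 361 against 1209.8 to 1240.3 CPM, and the 7 mature neutrophil genes to 117198 to 119050.0 against 99219 to 107234 CPM. The higher neutrophil sum was carried by Ngp (26271 to 27479 against 13823 to 15258 CPM) and S100a9 (52439 to 53686 against 46787 to 48083), while Ltf, Camp, Mmp8 and Cxcr2 lay below every WT library and S100a8 overlapped. With Combo the neutrophil sum was 126123 to 127696 CPM, the highest of the 5 groups, where the inducible genes were below WT. In bulk RNA, fewer cells of a type and less RNA per cell cannot be told apart, and the part of cell makeup in these differences was not tested.

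Each treatment lowered all 5 inducible genes in the BM of Ob/Ob recipients, and all 5 were called in each of the 3 comparisons. These comparisons share the Vehicle libraries. The log2 fold changes of GLP1R agonist against Vehicle were -2.27 for Psmb8, -2.17 for Psmb9, -2.93 for Psmb10, -1.97 for Psme1 and -2.51 for Psme2, equal to a level 7.62-fold lower for Psmb10 and 3.92-fold lower for Psme1. Those of Anti-IL17A were -1.83 for Psmb8, -1.79 for Psmb9, -2.60 for Psmb10, -1.94 for Psme1 and -2.30 for Psme2. Those of Combo were -1.84 for Psmb8, -1.67 for Psmb9, -2.74 for Psmb10, -1.95 for Psme1 and -2.22 for Psme2. Over all genes, 16.7% were called with GLP1R agonist (9.08% lower), 16.1% with Anti-IL17A (8.46% lower) and 17.7% with Combo (11.1% lower). Of the 44 other members, Psma5 and Psme2b were called lower in every comparison, Psma6 was called lower with Anti-IL17A alone, and Psma8 was called higher with GLP1R agonist, where 7.6% of all genes were called higher.

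The ring and 19S subunits fell too, at a smaller size. At an FDR under 0.05, 36.3% of all genes were lower with GLP1R agonist, 36.6% with Anti-IL17A and 35.8% with Combo. Against that, 29, 31 and 27 of the 31 ring and 19S subunits were lower, with median log2 fold changes of -0.42, -0.53 and -0.36, where the medians of all genes were 0.01, 0.01 and 0.02. With Combo, where 37.9% of all genes were higher, 2 subunits rose, Psmd2 by 0.21 and Psmd1 by 0.07. Psma5 fell from the Vehicle level to 149.5, 142 and 144 CPM with GLP1R agonist, 110.4, 109.8 and 105 with Anti-IL17A and 119, 117 and 118 with Combo, all below WT. Psmd3 kept part of its rise, at 131, 129.9 and 129 CPM with GLP1R agonist, 122, 123 and 122 with Anti-IL17A and 141, 141 and 146 with Combo, above every WT library. The catalytic trio Psmb5, Psmb6 and Psmb7 fell by between -0.36 (Psmb5, Combo) and -0.85 (Psmb6, Anti-IL17A) on the log2 scale.

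Several regulators moved the other way under treatment. Psme3 was 221, 215 and 216 CPM with GLP1R agonist, 188, 189.6 and 186 with Anti-IL17A and 213, 212 and 209.8 with Combo, above every Vehicle and WT library (0.48, 0.28 and 0.45 against Vehicle, log2). Psme4 rose by 0.13, 0.18 and 0.35. The 19S chaperone Psmd9 set GLP1R agonist apart from the other treatments, at 103, 104 and 106 CPM against 74.1, 72.1 and 78.9 with Vehicle, 64.4, 61.6 and 62.3 with Anti-IL17A and 58.97, 57.4 and 60.5 with Combo. About 25.5% of the exon bases of Psmd9 are shared with Gm26745. Psmf1 was likewise higher with GLP1R agonist (0.17) and lower with Anti-IL17A (-0.27) and Combo (-0.33). The core chaperone Psmg4 fell in all 3, to 7.49, 8.16 and 7.94 CPM with Anti-IL17A from 15.9, 15.2 and 15.1 with Vehicle (-0.97). Psma8 was read at low counts, and was 3.31, 2.94 and 2.96 CPM with GLP1R agonist against 1.53, 1.36 and 1.58 with Vehicle (1.04, edgeR FDR 5.35e-06).

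Treated BM ended below the WT level for the inducible genes. Against WT, the log2 fold changes with Combo were -0.46 for Psmb8, -0.69 for Psmb9, -0.79 for Psmb10, -0.46 for Psme1 and -0.61 for Psme2, all lower at an FDR under 0.05 in edgeR, where 37.2% of all genes were lower. With GLP1R agonist they ran from -1.19 for Psmb9 to -0.48 for Psme1, and with Anti-IL17A from -0.80 for Psmb9 to -0.45 for Psmb8 and -0.45 for Psme1, all 5 lower in both, with 38.1% and 33.9% of all genes lower. Combo did not lower these genes beyond GLP1R agonist alone. Psmb8, Psmb9, Psmb10 and Psme2 were higher with Combo than with GLP1R agonist, by 0.44, 0.50, 0.19 and 0.29, where 36.1% of all genes were higher. The interval for Psme1 was -0.03 to 0.08. Against Anti-IL17A the Combo interval was -0.06 to 0.05 for Psmb8 and -0.06 to 0.05 for Psme1, and Psmb10 was lower with Combo by -0.15. Psmb9 and Psme2 were higher with Combo than with Anti-IL17A, by 0.12 and 0.08, where 30.9% of all genes were higher.

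In ATM libraries the inducible genes rose more, and the constitutive subunits rose with them. Vehicle exceeded WT by 3.79-fold for Psmb9 to 5.87-fold for Psmb8, and all 5 inducible genes were called. Of all 17059 genes, 35.4% were called, 12.5% higher and 22.9% lower. Of the 49 members, 17 were called higher and 1 lower. The 12 called higher beyond the inducible genes were Psme2b and 11 of the 31 ring and 19S subunits. The single one called lower was the core chaperone Psmg1. All of these values are on the ATM scale, which was set apart from that of BM.

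Psmb8 lay at 174, 169 and 163 CPM in the WT libraries, 982, 960.4 and 1030.2 with Vehicle, 146, 159.6 and 152 with GLP1R agonist, 228, 229 and 233 with Anti-IL17A and 324, 347 and 347 with Combo. The groups did not overlap and ran, from the top, Vehicle, Combo, Anti-IL17A, WT and GLP1R agonist. Vehicle exceeded WT by 2.55 ± 0.047 on the log2 scale (edgeR FDR 4.04e-16).
Psmb9 lay at 54.98, 53.7 and 55.2 CPM in the WT libraries, 220.1, 193 and 208 with Vehicle, 27.6, 35.9 and 31.3 with GLP1R agonist, 58.9, 58.7 and 57.5 with Anti-IL17A and 102, 104 and 94.9 with Combo, in the same order and with no overlap. Its log2 fold change of Vehicle over WT was 1.92 ± 0.087 (edgeR FDR 2.51e-11).
Psmb10 lay at 56.3, 59.3 and 54.2 CPM in the WT libraries, 287, 268 and 269 with Vehicle, 39.95, 42.9 and 44.4 with GLP1R agonist, 74.5, 81.98 and 72.8 with Anti-IL17A and 78.3, 80.05 and 87.2 with Combo. Combo and Anti-IL17A overlapped here, and the other groups did not. Vehicle exceeded WT by 2.28 ± 0.074 (edgeR FDR 3.17e-13).
Psme1 lay at 125, 118 and 119 CPM in the WT libraries, 572, 560.7 and 594 with Vehicle, 81.6, 89.3 and 77.3 with GLP1R agonist, 135, 136 and 139 with Anti-IL17A and 165, 170.1 and 167 with Combo, and Psme2 at 134, 139.6 and 139.5 CPM in the WT libraries, 591, 553 and 595 with Vehicle, 91.3, 101 and 94.5 with GLP1R agonist, 162, 159.7 and 152 with Anti-IL17A and 188, 177 and 185 with Combo. Both PA28 genes kept the order of Psmb8 without overlap, with log2 fold changes of Vehicle over WT of 2.25 ± 0.054 (edgeR FDR 7.71e-15) and 2.07 ± 0.052 (edgeR FDR 1.25e-14).

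The order of the groups for these genes was also that of the summed neutrophil list in ATM libraries. Its sums ran from 146 to 147 CPM with GLP1R agonist to 20755 to 21971 with Vehicle. Single genes of the list did not all keep this order. Ltf (2282 to 2294 against 2014 to 2133 CPM), Ngp and Camp were higher with Combo than with Vehicle. S100a8, S100a9, Mmp8 and Cxcr2 were lower with Combo. S100a8 alone lay at 9249 to 9931 CPM with Vehicle and 3598 to 3737 with Combo, against 55.7 to 60.04 in WT. The macrophage and monocyte list was lowest with Vehicle, and the 4 epididymal genes in the table summed to 3427 to 3561 CPM in WT, 0.403 to 1.68 with Vehicle and 0 to 0.469 with Combo. The 5 adipocyte genes summed to 3968 to 4213 CPM with Vehicle against 1115 to 1130.1 in WT, and that rise was carried by Fabp4 (3921 to 4172 against 989 to 1001 CPM). Adipoq and Cfd lay below every WT library, at 10.8 to 12.1 against 25.6 to 27.8 and 1.02 to 5.05 against 86.2 to 93.1 CPM. Lep lay above every WT library, at 22.1 to 44.8 against 3.62 to 10.5 CPM, and Plin1 overlapped WT. The endothelial genes Cdh5 (568 to 707 against 73.1 to 84.9 CPM) and Pecam1 (460.1 to 494 against 227 to 244 CPM) were higher with Vehicle, while the stroma and endothelium list they belong to summed to 3427 to 3833 against 5480.5 to 5819 CPM. The part of these cell types in the proteasome values was not tested.

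Of the 31 ring and 19S subunits, 30 were higher in Vehicle than in WT at an FDR under 0.05 and Psmd6 did not pass (-0.13, interval -0.35 to 0.09), where 24.3% of all genes were higher and 32.6% lower. Their median log2 fold change was 0.89 against -0.21 over all genes. Psmb2, a noncatalytic beta subunit, showed the largest rise among them, from 118, 120.3 and 110.3 CPM in WT to 367, 337 and 351 with Vehicle (1.60 ± 0.056). Psma6, an alpha ring subunit, went from 112, 117 and 124 to 327, 332 and 342 CPM (1.50 ± 0.054). The other 9 called were Psma2, Psma5, Psmb3, Psmc4, Psmd3, Psmd4, Psmd7, Psmd11 and Psmd12, at 1.01 (Psmd7) to 1.20 (Psmb3). The ATPase ring gave a median of 0.70 and the non-ATPase subunits 0.97.

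None of the 3 constitutive catalytic genes reached the fold limit. Psmb5 lay at 81.7, 77.7 and 79.6 CPM in the WT libraries, 105, 112 and 115 with Vehicle, 82.4, 81.2 and 78.5 with GLP1R agonist, 109, 106 and 109 with Anti-IL17A and 99.1, 102 and 92.5 with Combo. The Vehicle and Anti-IL17A libraries overlapped at the top, and Vehicle exceeded WT by 0.48 ± 0.061 (edgeR FDR 6.82e-06). Psmb6 lay at 161, 142 and 142 CPM in the WT libraries, 286, 256 and 282 with Vehicle, 198, 229 and 209 with GLP1R agonist, 289, 297 and 289 with Anti-IL17A and 233, 238 and 229 with Combo, highest with Anti-IL17A. Vehicle exceeded WT by 0.89 ± 0.064 (edgeR FDR 8.69e-09). Psmb7 went from 70.1, 76.5 and 79.1 CPM in WT to 133, 139.9 and 146 with Vehicle (0.89 ± 0.071), and Vehicle stood above all other groups.

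The 7 assembly chaperones did not move as a group in ATM libraries, with 3 lower, 3 higher and 1 that did not pass. Psmg1 lay at 13.6, 18.1 and 15.8 CPM in WT and 7.37, 8.05 and 7.04 with Vehicle, a log2 fold change of -1.08 ± 0.20 (edgeR FDR 0.0003). Psmg2, its partner in the PAC1 and PAC2 pair, lay at 18.1, 17.1 and 18.8 and 8.09, 8.80 and 15.6 CPM (-0.74, edgeR FDR 0.014). Psmd5, a chaperone of the 19S base, was also lower (-0.72), while Psmd9 (0.58), Psmd10 (0.38) and the core chaperone Psmg4 (0.61) were higher. Psmg3 stood at 0.16 (edgeR FDR 0.5). Psme3 rose from 202, 209 and 215 to 308, 285 and 295 CPM (0.50) and Psmf1 by 0.55. Psme4 stood at -0.28 with an interval of -0.76 to 0.20. Psma8 was uneven within groups, at 7.17, 1.81 and 0.271 CPM in the Vehicle libraries, and did not pass.

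All 3 treatments lowered the inducible genes in ATM libraries, and GLP1R agonist did so the most. The log2 fold changes against Vehicle were -2.70 for Psmb8, -2.71 for Psmb9, -2.69 for Psmb10, -2.80 for Psme1 and -2.60 for Psme2 with GLP1R agonist, a level 6.96-fold lower for Psme1. With Anti-IL17A they were -2.11 for Psmb8, -1.83 for Psmb9, -1.85 for Psmb10, -2.07 for Psme1 and -1.88 for Psme2. With Combo they were -1.55 for Psmb8, -1.04 for Psmb9, -1.75 for Psmb10, -1.78 for Psme1 and -1.66 for Psme2. All 5 were called in each comparison, where 31.8%, 35.5% and 26.4% of all genes were called and 10.9%, 13.1% and 12.2% were called lower. Psmb9 with Combo sat just past the fold limit (-1.04 ± 0.084, edgeR FDR 4.33e-08) and fell short of it without Vehicle replicate 1. Psmb2 and Psme2b were called lower with all 3 treatments.

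Of the ring and 19S subunits, 28, 24 and 27 of 31 were lower with GLP1R agonist, Anti-IL17A and Combo, where 22%, 25% and 23.7% of all genes were lower at an FDR under 0.05. Their medians were -0.71, -0.43 and -0.51, against 0.19, 0.17 and 0 over all genes. Psmd6, a subunit of the 19S lid, was higher in all 3 (0.51, 0.48 and 0.40). Psmd7, another lid subunit, returned to 93.8, 102 and 95.00 CPM with Combo from 219, 183 and 212 with Vehicle, and its treated and WT libraries overlapped. Among the constitutive catalytic genes, Psmb7 fell in all 3 (-0.78, -0.51 and -0.62). Psmb5 and Psmb6 did not pass with Anti-IL17A, with intervals of -0.16 to 0.08 and -0.04 to 0.21.

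Among the regulators in ATM libraries, Psme3 parted the treatments. It lay at 158, 156 and 163 CPM with GLP1R agonist, 176, 160.0 and 152 with Anti-IL17A and 343, 297 and 289 with Combo, so that the Combo libraries overlapped Vehicle and the others lay below WT. Psmg1 rose with Anti-IL17A by 1.06 and with Combo by 0.98, and its GLP1R agonist value was 0.48 (edgeR FDR 0.055). Psmc3ip and Psma8, the members with roles in germ cells, were called higher with Anti-IL17A, as was Psmg1, where 22.4% of all genes were called higher. Psmc3ip lay at 9.69, 10.1 and 9.17 CPM there against 1.53, 2.65 and 4.10 with Vehicle (1.81 ± 0.35). Psma8 lay at 10.9, 11.9 and 14.1 CPM there (1.99 ± 0.72, edgeR FDR 0.028), and that call was lost when single libraries were left out.

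**Figure D2:**
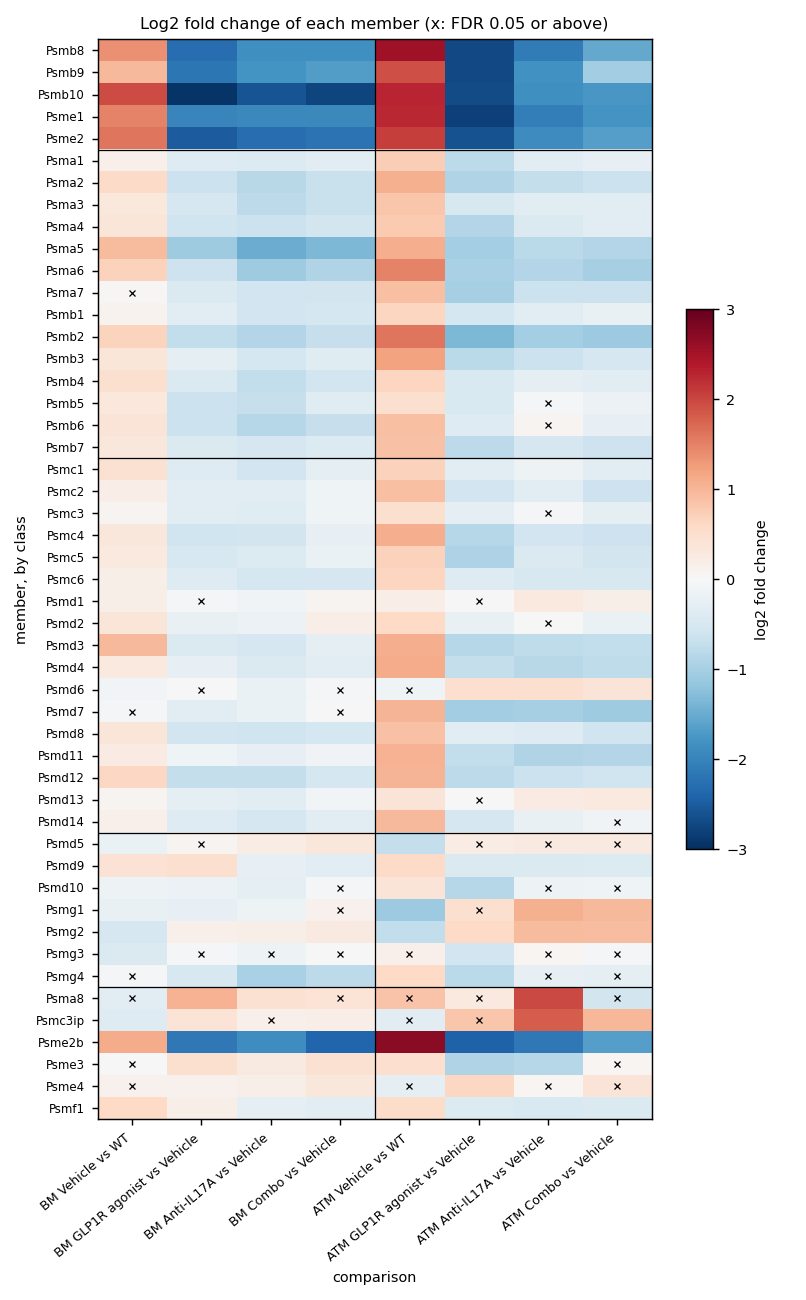
Log2 fold change (colour) of each of the 49 members (rows, by class) in the 4 comparisons of BM and of ATM (columns), each tissue scaled on its own. A cross marks an edgeR FDR of 0.05 or above. The inducible genes and Psme2b carry the deepest colours, most ring and 19S subunits share their direction more faintly, and Psmg2 and Psmd5 have the opposite sign in all 8 columns, some of them crossed.

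Unlike in BM, the Combo libraries of ATM stayed above WT for the inducible genes. The log2 fold changes of Combo against WT were 1.01 for Psmb8, 0.88 for Psmb9, 0.53 for Psmb10, 0.47 for Psme1 and 0.41 for Psme2, all 5 higher in edgeR at an FDR under 0.05, where 17.8% of all genes were higher. GLP1R agonist ended below WT for all 5, from -0.79 for Psmb9 to -0.14 for Psmb8 (edgeR FDR 0.021), where 15.5% of all genes were lower. Anti-IL17A ended above WT for 4 of them, by 0.18 (Psme1) to 0.45 (Psmb8), where 20.1% of genes were higher, and Psmb9 stood at 0.10 with an interval of -0.07 to 0.26. Combo exceeded GLP1R agonist for all 5, by 1.15 for Psmb8, 1.67 for Psmb9, 0.95 for Psmb10, 1.02 for Psme1 and 0.94 for Psme2, where 15.2% of genes were higher. Against Anti-IL17A, Combo was higher for Psmb8 (0.56), Psmb9 (0.78), Psme1 (0.29) and Psme2 (0.22), where 10.7% of genes were higher, and Psmb10 did not pass (0.10).

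The design allows a test of whether Combo equals the sum of the single treatments on the log2 scale. The departure is Combo minus GLP1R agonist minus Anti-IL17A plus Vehicle, and 0 means additivity. It was above 0 for all 5 inducible genes in both tissues. In BM it was 2.27 for Psmb8, 2.29 for Psmb9, 2.78 for Psmb10, 1.97 for Psme1 and 2.59 for Psme2, and in ATM 3.26 for Psmb8, 3.50 for Psmb9, 2.79 for Psmb10, 3.09 for Psme1 and 2.82 for Psme2. In BM 35.6% and in ATM 20.7% of all genes departed upward at an FDR under 0.05 in edgeR. Combo thus lowered these genes by less than the single treatments add up to. A gene that is high in the Vehicle libraries alone departs upward by construction, since Vehicle enters with a plus sign. The departure therefore cannot tell how the treatments act together on such genes. Of the 31 ring and 19S subunits, 31 in BM and 22 in ATM departed upward, with medians of 0.59 and 0.67.

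**Figure D3:**
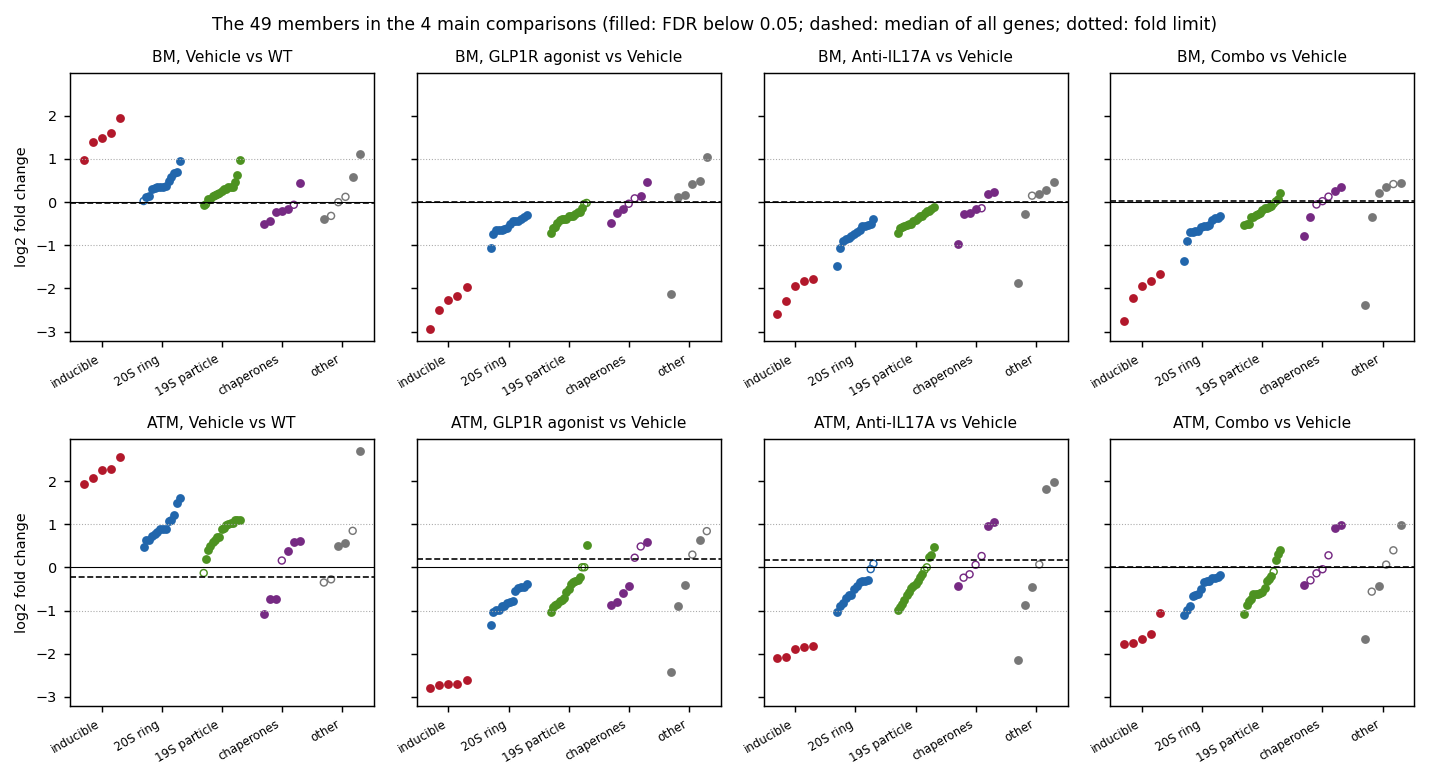
Log2 fold change of each member by role class in the 4 comparisons and both tissues. Each point is 1 gene, filled where the edgeR FDR was under 0.05, with the median of all genes dashed and the fold limit dotted. The 5 inducible genes lie beyond every ring and 19S subunit (Psmb9 in BM level with Psmd3 and Psma5), upward for Vehicle against WT and downward for each treatment, except Psmb9 in ATM with Combo, which Psmb2 and Psmd7 match.

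Each inducible catalytic gene replaces 1 constitutive gene in the ring, so the share of the inducible transcript in its pair was computed from counts per kilobase of the principal transcript. This share does not depend on the scaling between libraries, but its level depends on the length used. In BM WT, Psmb8 held 67.9 to 68.6% of its pair from counts without length scaling. Scaled by the length of all annotated exons, it held 36.0 to 36.7%. Values are mean ± SD with n = 3. For Psmb8 with Psmb5 in BM the share was 54.2 ± 0.42% in WT, 71.3 ± 0.70% with Vehicle, 44.7 ± 0.71% with GLP1R agonist, 52.9 ± 0.98% with Anti-IL17A and 47.2 ± 0.65% with Combo. In ATM it was 53.9 ± 0.80% in WT, 83.1 ± 0.58% with Vehicle, 51.1 ± 1.40% with GLP1R agonist, 54.1 ± 0.34% with Anti-IL17A and 65.7 ± 1.57% with Combo. Vehicle was highest in both tissues, by 17.2 percentage points over WT in BM and 29.2 in ATM.
For Psmb9 with Psmb6 the share in BM was 28.9 ± 1.55% in WT, 38.2 ± 0.61% with Vehicle, 17.7 ± 0.25% with GLP1R agonist, 24.5 ± 0.71% with Anti-IL17A and 23.9 ± 0.37% with Combo. In ATM it was 17.9 ± 0.95% in WT, 30.8 ± 0.45% with Vehicle, 8.07 ± 0.43% with GLP1R agonist, 10.6 ± 0.14% with Anti-IL17A and 20.3 ± 0.50% with Combo. The excess of Vehicle over WT was 9.29 and 12.9 points.
For Psmb10 with Psmb7 the share in BM was 33.1 ± 0.48% in WT, 60.2 ± 0.90% with Vehicle, 21.1 ± 0.75% with GLP1R agonist, 26.3 ± 1.08% with Anti-IL17A and 23.1 ± 0.78% with Combo. In ATM it was 39.99 ± 1.98% in WT, 63.5 ± 1.92% with Vehicle, 31.6 ± 2.30% with GLP1R agonist, 40.9 ± 0.21% with Anti-IL17A and 44.4 ± 1.68% with Combo. Vehicle exceeded WT by 27.1 and 23.5 points. In all 3 pairs and both tissues, no Vehicle library overlapped a WT or treated library, with a 2-sided exact permutation p of 0.1, the smallest that 3 against 3 allows.

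**Figure D4:**
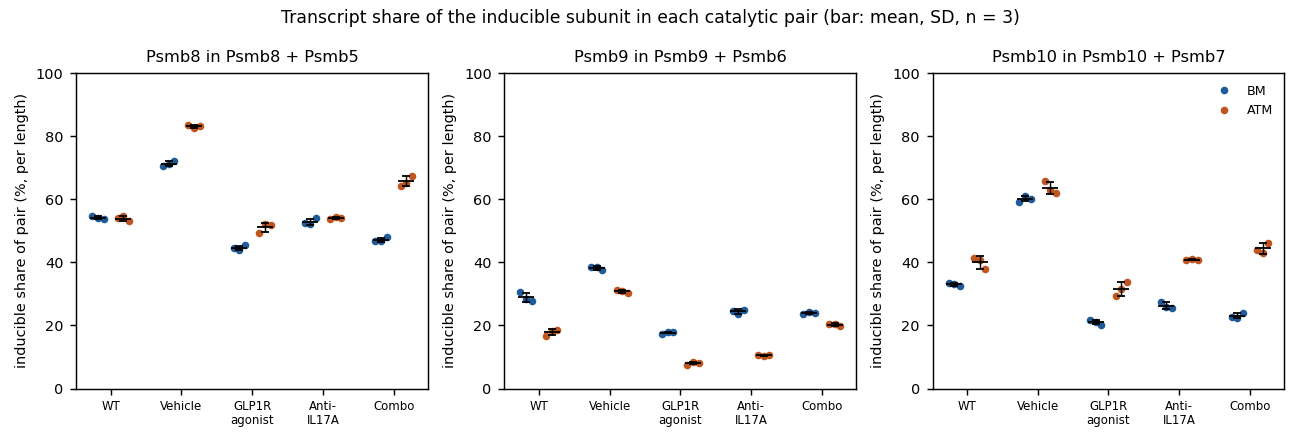
Share of the inducible transcript in each catalytic pair, in percent of the pair's counts per kilobase, by group and tissue. Each point is 1 library and the bars give the mean and SD of 3. In every pair and tissue the Vehicle libraries lie above all others.

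Together the 49 members took 0.841 to 0.848% of all counts in BM with Vehicle, against 0.620 to 0.648% in WT, 0.625 to 0.626% with GLP1R agonist, 0.554 to 0.557% with Anti-IL17A and 0.536 to 0.540% with Combo. In ATM they took 0.779 to 0.813% with Vehicle, 0.505 to 0.511% in WT, 0.469 to 0.490% with GLP1R agonist, 0.615 to 0.629% with Anti-IL17A and 0.666 to 0.675% with Combo. The makeup of these counts shifted as well. Psmb8, Psmb9, Psmb10, Psme1 and Psme2 held 12.7 to 13.1% of the members' counts in BM WT and 24.5 to 25.02% with Vehicle. In ATM they held 11.5 to 12.00% in WT, 26.8 to 27.3% with Vehicle and 14.1 to 14.5% with Combo.

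The difference between tissues was tested in 1 fit of all 30 libraries over the 13076 shared genes, which took BM and ATM samples as separate. For Vehicle against WT, 37 of 49 members had a larger log2 fold change in ATM and 2 a smaller one, where 26.9% of all genes had a larger one. All 5 inducible genes were among the 37, with ATM minus BM differences of 1.18 ± 0.057 for Psmb8 (edgeR FDR 9.92e-16), 0.94 ± 0.087 for Psmb9, 0.32 ± 0.082 for Psmb10, 0.77 ± 0.057 for Psme1 and 0.47 ± 0.062 for Psme2. Of the 31 ring and 19S subunits 27 were larger in ATM, with a median difference of 0.51 against -0.06 over all genes. Psmd7 gave 1 of the widest gaps, at -0.05 in BM and 1.01 in ATM, a difference of 1.07 ± 0.084. For Combo against Vehicle the picture was mixed. There, 20 members had a less negative or higher value in ATM and 11 a lower one, where 32% of all genes were higher. All 5 inducible genes fell less in ATM than in BM, by 0.20 ± 0.057 (Psme1) to 1.04 ± 0.082 (Psmb10) on the log2 scale. The difference for Psme1 did not pass with DESeq2 size factors.

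**Figure D5:**
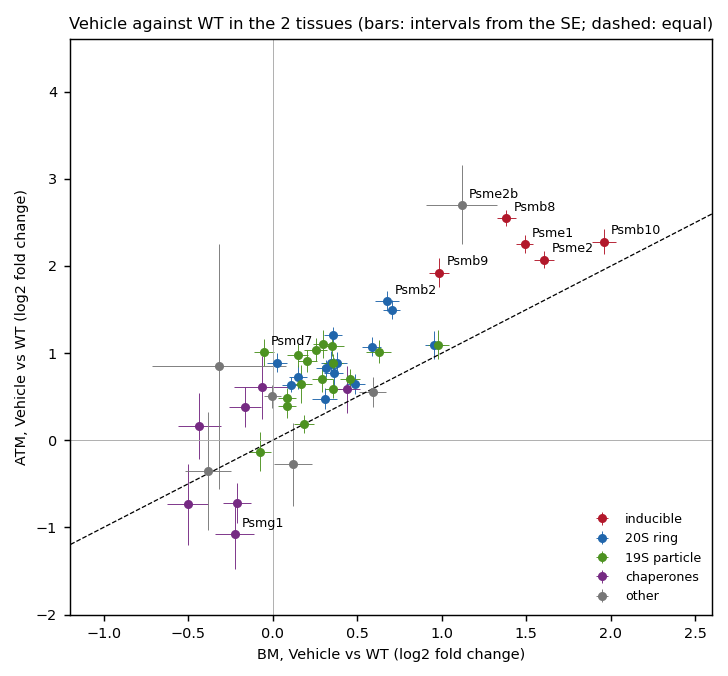
Log2 fold change in BM (horizontal) against ATM (vertical) of Vehicle against WT for each member, coloured by class, with bars for the intervals and a dashed line for equal change. The inducible genes lie above the line at the upper right, most other members also lie above it, and the chaperone Psmg1 lies furthest below.

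Genes that act around the proteasome were read from lists beside the members. The 11 genes of peptide loading on MHC class I mostly moved in the direction of the inducible genes. In BM, 10 of 11 were higher and 1 lower in Vehicle than in WT, with a median log2 fold change of 1.20 against -0.02 over all genes. The peptide transporter gene Tap1 rose by 2.21 ± 0.026, the loading factor Tapbp by 2.20 ± 0.026, the class I heavy chain H2-K1 by 1.71 ± 0.024 and the light chain B2m by 1.67 ± 0.024, and the general chaperone Canx stood lower (-0.34 ± 0.026). In ATM, 10 were higher and 1 lower, with a median of 1.51 against -0.21 and Tap1 at 2.76 ± 0.061. Against Vehicle, 10, 10 and 10 of 11 were lower in BM with GLP1R agonist, Anti-IL17A and Combo, and 10, 9 and 10 in ATM. The shares of all genes lower in these comparisons were 36.3%, 36.6% and 35.8% in BM and 22%, 25% and 23.7% in ATM.

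Of 12 interferon pathway genes, 9 were higher and 3 lower in Vehicle than in WT in BM (median 0.86), and 10 and 1 in ATM (median 1.35). Over all genes, 37.8% were higher and 38.8% lower in BM (median -0.02) and 24.3% and 32.6% in ATM (median -0.21). Irf7, a factor of the type I interferon response, rose by 4.49 ± 0.042 in BM and 5.52 ± 0.075 in ATM, and the fold changes of Combo against Vehicle were -5.71 and -5.94. Nlrc5, the transactivator of class I genes, rose by 2.67 ± 0.048 and 1.80 ± 0.14. Irf1, a target and effector of interferon gamma, rose by 0.96 and 1.37. The cytokine gene Ifng was read at 0.796, 0.769 and 0.835 CPM in BM WT and 3.84, 4.01 and 3.31 with Vehicle (2.22). In ATM it stood at -0.25 for Vehicle against WT (edgeR FDR 0.24) and rose by 2.01 with Combo, where the inducible proteasome genes fell. The T and NK cell list in ATM summed to 254 to 265 CPM in WT, 100.4 to 114 with Vehicle and 834 to 858 with Combo. In BM the list summed to 189 to 198 CPM in WT, 135 to 139 with Vehicle and 169 to 174 with Combo. Nkg7 carried the BM difference between Combo and Vehicle (140 to 142 against 79.3 to 80.3 CPM), while Cd3d, Cd3e, Cd3g, Cd4, Cd8a and Klrb1c were lower with Combo. Ifng in BM lay at 0.148, 0 and 0.210 CPM with Combo. The part of these cells in the Ifng values was not tested.

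The lists that follow are read against the same shares of all genes, 37.8% higher and 38.8% lower in BM and 24.3% and 32.6% in ATM, and differences between the tissues in these counts were not tested. A list of 9 genes held those of the NRF1, NRF2 and NF-Y factors that drive constitutive subunits, with Ddi2, Maff, Mafg and Mafk. In BM 5 were higher in Vehicle than in WT (Nfe2l1, Ddi2, Maff, Mafg and Mafk). The 4 lower in BM were Nfe2l2, Nfya, Nfyb and Nfyc. In ATM 8 were higher and 0 lower. Nfe2l1, which encodes NRF1, rose by 0.35 ± 0.036 in BM and 0.73 ± 0.084 in ATM. Nfe2l2, which encodes NRF2, stood at -0.57 ± 0.032 in BM and 0.75 ± 0.046 in ATM, and both values passed the test. Against Vehicle with Combo, Nfe2l1 stood at 0.04 in BM (edgeR FDR 0.34) and -1.43 in ATM. Of 8 tested accessory genes, 3 were higher and 2 lower in BM, and 5 and 2 in ATM. Pomp, the maturation factor of new cores, rose by 0.13 ± 0.032 in BM and 1.36 ± 0.069 in ATM, and Adrm1, a ubiquitin receptor of the cap, by 0.50 ± 0.041 and 1.09 ± 0.070. Of 6 ubiquitin genes, 4 were higher and 2 lower in BM, and 5 and 0 in ATM.

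Likeness to Psmb8 was measured as Pearson's r of log2 group means over the 10 groups of both tissues, scaled together over the shared genes. It is a description only, since groups of a tissue share its cell makeup and sorting. Outside the members, the closest genes were Gm6904 (r = 0.975), Exosc4 (0.959), Zbp1 (0.959), Stx4a (0.957) and Hps6 (0.954). Within the members, Psme2b (0.966), Psme2 (0.965), Psmd12 (0.954), Psmb10 (0.943) and Psmb2 (0.922) were closest. Psmd12, a lid subunit, lay at 68.5, 73.6 and 77.2 CPM in ATM WT and 152, 138 and 154 with Vehicle. At the other end stood the chaperones Psmg2 (-0.67), Psmd5 (-0.66) and Psmg1 (-0.50), together with Psmc3ip (-0.51).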

How the data were processed

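RNA-seq count tables of BM (13353 genes) and ATM (17059 genes) were used, each with 15 libraries, 3 in each of 5 groups named in the sample titles. The deposited values are raw counts per gene. The authors aligned reads to mm10 (GRCm38) with STAR 2.7.2a and counted uniquely mapped read pairs with featureCounts 2.0.1, without strand and over all overlapping genes of GENCODE, and low-count genes were absent from the deposited tables. The members and lists used here were chosen with earlier results of these data known.

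Counts were scaled by TMM and fitted per tissue over all 15 libraries with the quasi-likelihood test of edgeR 4.0.16 (R 4.3.3), which leaves fold changes relative to the bulk of genes. The edgeR low-count filter removed no gene. P-values were adjusted over all genes of the fit by Benjamini-Hochberg. A call needed an FDR under 0.05 and an absolute log2 fold change over 1. Errors are SE from the fit, and intervals are 95% normal intervals from the SE. CPM values are TMM-scaled counts per 1000000. The difference between tissues came from 1 edgeR fit of 30 libraries. Pair shares used counts per kilobase and 2-sided exact permutation tests. Named genes were the inducible and constitutive catalytic genes, PA28, members past the fold limit, and the members at either end of each role. Alternatives were DESeq2 1.42.0 and its size factors, voom in limma 3.58.1, other low-count filters, no fold limit, only the 6 libraries compared, a replicate block and leaving out each library. The scripts were tested on simulated data. Some genes of the pathway and marker lists are not reported here by name. Gene positions came from GENCODE M21, 1 release before the one the authors used.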

Additional observations from a re-analysis of the deposited data

Results flagged for a closer look

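The same contrast gave different sizes in the 2 tissues for a number of members, by a test of the difference itself in edgeR over 30 libraries. Values are ATM minus BM log2 fold changes. For Vehicle against WT, every inducible gene rose more in ATM, by 1.18 (Psmb8), 0.94 (Psmb9), 0.77 (Psme1), 0.47 (Psme2) and 0.32 (Psmb10). The constitutive catalytic genes did so by 0.55 (Psmb7), 0.52 (Psmb6) and 0.17 (Psmb5). The lid subunit Psmd7 differed by 1.07 and the Psme2 copy Psme2b by 1.59.

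For Combo against Vehicle, the inducible genes fell less in ATM, by 1.04 (Psmb10), 0.67 (Psmb9), 0.59 (Psme2), 0.33 (Psmb8) and 0.20 (Psme1). Psmb6 and Psmb5 also fell less in ATM, by 0.50 and 0.22, while Psmb7 gave -0.17 and Psmd7 -1.05, which means larger falls in ATM. The difference for Psmb5 did not pass in either contrast, nor that for Psmb7 in the Combo contrast, when limma's voom was given a separate variance for each tissue, and those for Psmb5 and Psme1 in the Combo contrast did not pass with DESeq2 size factors. The ATM libraries also differed from BM in their neutrophil and macrophage sums, and the part of these in the differences was not tested.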

How the results depend on the processing

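No value of a named member that passed an FDR under 0.05 in the main fit or in the alternative changed direction, and no pair share difference did. Values that passed in neither were not compared for direction. The calls of the 5 inducible genes held under each setting tried except when single libraries were left out, where 4 to 5 were called in BM for Vehicle against WT (5 without WT replicate 1 or Vehicle replicate 3), 4 to 5 in ATM for Combo (4 without Vehicle replicate 1) and 5 in the others, Psmb9 being the gene that crossed the fold limit. With no fold limit, the inducible genes gave 5 in every comparison. The other 44 members depended far more on the fold limit. With an FDR under 0.05 alone, 38, 40, 42 and 38 of them passed in BM (Vehicle against WT, then GLP1R agonist, Anti-IL17A and Combo against Vehicle) and 39, 38, 35 and 36 in ATM, where the limit left 1, 3, 3 and 2 in BM and 13, 4, 5 and 3 in ATM. Requiring 10 counts in every library gave 5 for ATM with Combo. Leaving out single libraries gave 1 to 2, 2 to 3, 3 and 2 in BM and 11 to 14, 4 to 5, 4 to 7 and 3 to 5 in ATM, with 2 in BM for Vehicle against WT without WT replicate 2, and 5 in ATM with Combo without Vehicle replicate 3, Combo replicate 1 or Combo replicate 2. DESeq2 and its size factors gave 6 for ATM with GLP1R agonist, as did a fit of only the 6 libraries compared.

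For the pair shares, the Vehicle minus WT difference for Psmb8 was 13.7 points in BM and 22.002 in ATM from counts without length scaling, and that for Psmb9 in ATM was 16.0. With the union of all exons as length, a setting chosen after seeing the data, the differences were 18.2 and 34.3 for Psmb8, 11.9 for Psmb9 in ATM, and 24.6 and 19.6 for Psmb10. Leaving out single libraries gave 16.8 to 17.5 and 28.8 to 29.6 points for Psmb8, 8.72 to 10.2 and 12.3 to 13.3 for Psmb9, and 26.7 to 27.6 and 22.4 to 24.3 for Psmb10, in BM and ATM. Tissue differences passed for 39 and 31 members with TMM and for 36 and 27 with limma's voom.

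With the replicate number as a block, the count for the other members in ATM with Combo was 4 in place of 3 and no other count of calls changed. Same-numbered libraries did not deviate together (correlations of -0.03 to 0.05 in BM and -0.02 to 0.03 in ATM), so the numbers were not taken to pair samples. Low counts limit Psma8, Psme2b, Psmc3ip and the Psmg genes. In ATM with Anti-IL17A, Psma8 lost its call without Vehicle replicate 2 (edgeR FDR 0.087), without Anti-IL17A replicate 3 and in a fit of only the 6 libraries compared. Psmc3ip is also limited by exon overlap with Mlx.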
